A study of Arabidopsis thaliana with 12 samples.

Results

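The CBF factors and the cold-regulated COR genes are 10 named genes of Arabidopsis thaliana, and they were followed here in seedlings that were given light and no stated cold. They were taken by gene identifier and not by their values: CBF1 (AT4G25490), CBF2 (AT4G25470), CBF3 (AT4G25480), COR15A (AT2G42540), COR15B (AT2G42530), KIN1 (AT5G15960), KIN2 (AT5G15970), COR47 (AT1G20440), RD29A (AT5G52310) and GOLS3 (AT1G09350). They are 10 of the 32833 genes measured, and 8 of them were among the 20314 genes with enough RNA to be tested. RNA was sequenced from whole seedlings, 10 days old and kept in darkness beforehand, of a mutant in cryptochrome 1, which senses blue light, written cry1 below, and of the wild type (WT). The 4 groups were cry1 after 1 h of continuous blue light (fluence rate 40 µmol m-2 s-1), cry1 in the dark, WT after the same blue light and WT in the dark, each with 3 libraries. The labels name no particular cry1 allele and no growth temperature, and it is not stated that the 3 libraries came from different sowings. P-values therefore set differences against the spread of 3 libraries, part of which may be technical.

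CBF proteins, also called DREB1, are AP2-type transcription factors whose genes are switched on within minutes to hours of cold. They bind the CRT/DRE element, whose core is CCGAC, in the promoters of COR genes, whose products are mostly hydrophilic proteins and enzymes of protective sugars that help cells withstand freezing and water loss. Several COR genes also carry ABRE elements, through which abscisic acid acts, and the circadian clock and light receptors are known to adjust the pathway.

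Values are TPM, transcript abundances scaled per gene length and to the total of a library, so levels of different genes are compared per length. Fold changes are differences of log2(TPM + 1), which understate changes of genes with few TPM, and a gene was called at an adjusted p under 0.05 (limma, Benjamini-Hochberg over all 20314 genes). TPM keeps no read depth, so the data allow no interval for counting error and no limit of detection, and a 0 means only that a gene was listed at 0. In whole seedlings, fewer cells of a type and less RNA per cell cannot be told apart. CRY1 itself averaged 0.58 ± 0.56 TPM in cry1 blue light and 0.98 ± 0.70 TPM in the cry1 dark libraries, against 35.6 ± 13.3 TPM in WT blue light and 58.6 ± 1.98 TPM in the WT dark (SD, n = 3 each). Root marker genes also differed between the groups. The 7 root markers summed to between 152 and 214 TPM in cry1 blue light and between 61.5 and 91.1 TPM in the cry1 dark, against 0.92 to 10.2 TPM in WT blue light and 12.9 to 29.5 TPM in the WT dark. In blue light 6 of the 7 were higher in cry1 than in WT, where 10.9% of all genes tested were higher. PRP3 was higher by 5.52 ± 0.33 (log2 ± SE, adjusted p = 7.65e-07), and IRT1 was listed at 0 in all 3 WT blue libraries. The part of this difference in the results on genotypes below was not tested. The 5 markers of shoot epidermis and stomatal lineage summed to 197 to 254 TPM in cry1 blue light and 171 to 245 TPM in the cry1 dark, against 111 to 189 TPM in WT blue light and 190 to 219 TPM in the WT dark. Most of each sum was the epidermal gene FDH, which averaged 194 TPM in cry1 blue light and 122 TPM in WT blue light. The other means there were 14.35 and 3.11 TPM for CER1, 3.99 and 3.43 TPM for SPCH, 7.09 and 7.03 TPM for TMM, and 6.92 and 10.5 TPM for FAMA.

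The 3 CBF genes were near 0 in all 12 libraries, while most COR genes rose strongly in blue light. CBF1, CBF2 and CBF3 lie side by side on chromosome 4, in the order CBF2 (13015250 to 13016235), CBF3 (13018010 to 13019400) and CBF1 (13021780 to 13022996), all on the minus strand of the assembly TAIR10.1, with no protein-coding gene between them. Their coding sequences are 87.3% to 87.5% identical, so how reads shared between them were divided could affect each value. CBF1 had 0.28, 0.18 and 0.00 TPM in cry1 blue light and 0.06, 0.24 and 0.11 TPM in the cry1 dark, against 0 in all 3 WT blue libraries and 0.12, 0.21 and 0.06 TPM in the WT dark. CBF3 had 0.33, 0.05 and 0.86 TPM in cry1 blue light and 0.05, 0.12 and 0.05 TPM in the cry1 dark, against 0.13, 0.13 and 0.15 TPM in WT blue light and 0, 0.06 and 0 TPM in the WT dark. CBF2 had 0.59, 0.48 and 0.95 TPM in cry1 blue light and 0.54, 1.61 and 1.17 TPM in the cry1 dark, against 0.54, 1.12 and 0.60 TPM in WT blue light and 0.48, 1.03 and 0.41 TPM in the WT dark. No library held more than 1.61 TPM of any of the 3, and the 4 groups overlapped for CBF2.

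CBF1 and CBF3 were below the test's filter, which asked for 1 TPM in at least 3 libraries, and neither was called in any of the 5 contrasts in a limma fit of 25890 genes without it. In WT, CBF1 was at 0 in blue light and above 0 in each dark library (adjusted p = 0.203), and CBF3 was higher in each blue library than in each dark one (adjusted p = 0.496). For CBF3 in cry1 the light response was 0.36 ± 0.16, with an unadjusted p of 0.0431 and an adjusted p of 0.188. For CBF2 the estimated light response was -0.31 in cry1 (95% CI -0.85 to 0.23, adjusted p = 0.466) and 0.10 in WT (95% CI -0.44 to 0.64, adjusted p = 0.776) on the log2 scale. Between cry1 and WT the difference was -0.06 in blue light (95% CI -0.60 to 0.48, adjusted p = 0.887), with no call in the dark or for the interaction either (adjusted p = 0.311 and 0.476). These intervals are on the log2(TPM + 1) scale, where a gene under 2 TPM can move only little. Across the 12 libraries CBF2 correlated with the 7 tested COR genes at r between -0.44 and 0.05, while the 7 correlated with each other at r between 0.69 and 0.98. These are descriptions over libraries that share 4 conditions, and CBF2 is close to 0 throughout. The collection at 1 h gives a single time in blue light, so levels at earlier times are not known from these data.

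The close relatives CBF4, DDF1 and DDF2 were also scarce. CBF4, which is known from drought and abscisic acid responses, reached at most 0.32 TPM. DDF1, a relative known from salt stress, reached at most 0.11 TPM, and DDF2 was listed at 0 in all 12 libraries. None of these was tested.

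**Figure D1:**
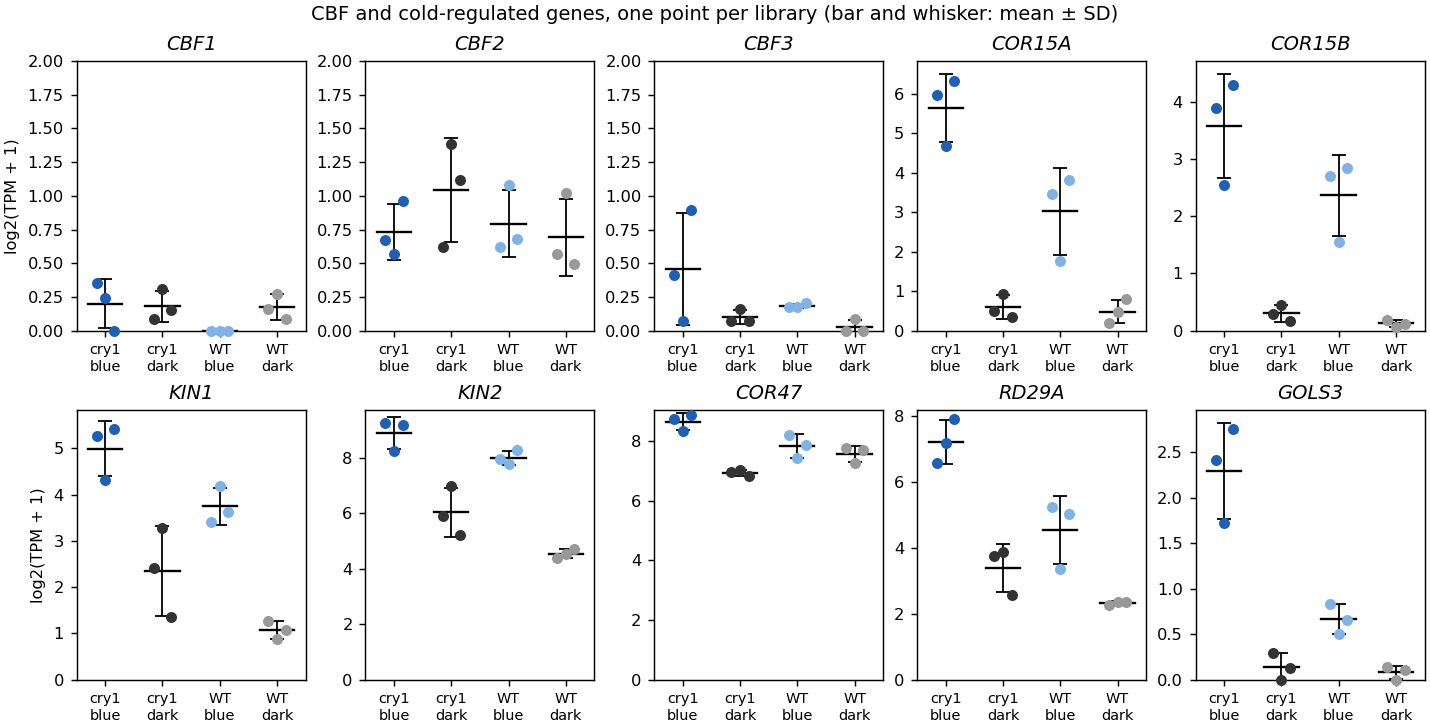
Level of the 10 genes in each of the 12 libraries, with 1 panel per gene; the vertical axis is log2(TPM + 1) with its own range in each panel, points are libraries, and bars and whiskers are the mean and SD of a group (n = 3). The 3 CBF genes stay below 1.61 TPM or at it, while COR15A, KIN1, COR47, RD29A and GOLS3 stand highest in the 3 cry1 blue libraries.

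Among the COR genes, blue light raised COR15A, COR15B, KIN1, KIN2 and RD29A in both genotypes, and COR47 and GOLS3 in cry1. Of the 8 genes tested, 7 rose and 0 fell in cry1, and 5 rose and 0 fell in WT. Of all genes tested, 9.19% rose and 5.73% fell in cry1, and 9.73% rose and 25.3% fell in WT. The split for WT depends on scaling: rises made up 27.8% of the calls with TPM as deposited, 51.9% after a TMM-type scaling and 45.5% after quantile normalization. COR15A and COR15B, called in both genotypes, and GOLS3, called in cry1, passed the filter only through blue light libraries, so the counts are no measure of how common a response is. In every one of the 15 alternative settings and left-out libraries, the light responses of COR15A, COR15B, KIN1, KIN2 and RD29A were called in both genotypes.

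COR15A and COR15B encode small proteins of the chloroplast stroma that stabilise membranes during freezing. They lie head to tail on chromosome 2, COR15B at 17708593 to 17710433 and COR15A at 17710441 to 17712330, both on the minus strand and 7 bases apart in the TAIR10.1 annotation. COR15A had 61.48, 24.50 and 78.81 TPM in cry1 blue light and 0.41, 0.91 and 0.27 TPM in the cry1 dark, against 10.12, 2.42 and 13.15 TPM in WT blue light and 0.14, 0.39 and 0.73 TPM in the WT dark. Every cry1 blue library lay above every WT blue library, and all 6 dark libraries were under 1 TPM. The light response was 5.06 ± 0.49 in cry1 (log2 ± SE, adjusted p = 1.34e-05) and 2.54 ± 0.49 in WT (adjusted p = 0.00198). In blue light COR15A was higher in cry1 than in WT by 2.63 ± 0.49 (adjusted p = 0.00199), and in the dark the difference was 0.11 ± 0.49 (adjusted p = 0.891). The response in cry1 exceeded that in WT by 2.52 ± 0.70 (95% CI 1.02 to 4.02, adjusted p = 0.0398). That last call is fragile, since 12 of the 20 alternatives lost it; without the second WT blue library the difference was 1.90 (adjusted p = 0.0731).

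COR15B had 13.78, 4.83 and 18.59 TPM in cry1 blue light and 0.22, 0.37 and 0.12 TPM in the cry1 dark, against 5.47, 1.94 and 6.18 TPM in WT blue light and 0.14, 0.05 and 0.09 TPM in the WT dark. The 2 blue groups overlapped, because the lowest cry1 library lay below 2 of the WT libraries. It rose by 3.27 ± 0.41 in cry1 (adjusted p = 0.0001) and by 2.24 ± 0.41 in WT (adjusted p = 0.00128). In blue light it was higher in cry1 by 1.21 ± 0.41 (adjusted p = 0.0439), a call that 7 of 15 alternatives lost. The difference between the light responses was 1.04 (95% CI -0.20 to 2.27, adjusted p = 0.262). The coding sequences of the pair are 83.8% identical, and the longest stretch their transcripts share is 31 bases.

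RD29A encodes a hydrophilic protein that responds to cold, drought, salt and abscisic acid, and its promoter is a widely used reporter of these stresses. The gene lies on chromosome 5 at 21240717 to 21243644 on the plus strand. It had 93.90, 145.66 and 238.39 TPM in cry1 blue light and 12.41, 13.77 and 4.91 TPM in the cry1 dark, against 37.29, 9.36 and 31.56 TPM in WT blue light and 3.81, 4.12 and 4.13 TPM in the WT dark. The cry1 blue libraries were the 3 highest, and each dark library of cry1 was above each dark library of WT. RD29A rose by 3.83 ± 0.47 in cry1 (adjusted p = 9.73e-05) and by 2.23 ± 0.47 in WT (adjusted p = 0.0035). It was higher in cry1 than in WT in blue light by 2.67 ± 0.47 (adjusted p = 0.00145), and this held in all 15 alternatives. In the dark the difference was 1.07 ± 0.47 (95% CI 0.05 to 2.09, adjusted p = 0.104), and without the third cry1 dark library it was 1.49 (adjusted p = 0.0331). The 2 light responses differed by 1.60 (95% CI 0.16 to 3.04, adjusted p = 0.142).

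GOLS3 encodes a galactinol synthase, the enzyme of the first committed step towards raffinose-type protective sugars, and it is the galactinol synthase gene known to follow CBF factors in the cold. It lies on chromosome 1 at 3019639 to 3021443 on the plus strand. GOLS3 had 4.32, 2.30 and 5.75 TPM in cry1 blue light and 0.23, 0 and 0.09 TPM in the cry1 dark, against 0.78, 0.42 and 0.58 TPM in WT blue light and 0.10, 0 and 0.08 TPM in the WT dark. It exceeded 1 TPM in the 3 cry1 blue libraries alone, so it passed the filter only through the group where it is high. It rose by 2.16 ± 0.25 in cry1 (adjusted p = 5.28e-05), and its estimated response in WT was 0.58 ± 0.25 (95% CI 0.05 to 1.12, adjusted p = 0.0832). With a pseudocount of 0.1 in place of 1 the WT response was 2.15 and was called (adjusted p = 0.0205). In blue light cry1 was higher than WT by 1.63 ± 0.25 (adjusted p = 0.000547). The difference between the light responses was 1.57 ± 0.35 (95% CI 0.82 to 2.33, adjusted p = 0.0183), and with the pseudocount of 0.1 it was 2.28 but no longer called (adjusted p = 0.124).

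The 250 bases before the annotated start of COR15A, RD29A and GOLS3 are shown because these are the 3 genes of the 10 with a CRT/DRE core in that window. They are chr2:17712331-17712580 on the minus strand, chr5:21240467-21240716 on the plus strand and chr1:3019389-3019638 on the plus strand of TAIR10.1, read 5′ to 3′ in the direction of the gene. Capitals mark CCGAC or, where the core is on the other strand, its complement GTCGG.
COR15A: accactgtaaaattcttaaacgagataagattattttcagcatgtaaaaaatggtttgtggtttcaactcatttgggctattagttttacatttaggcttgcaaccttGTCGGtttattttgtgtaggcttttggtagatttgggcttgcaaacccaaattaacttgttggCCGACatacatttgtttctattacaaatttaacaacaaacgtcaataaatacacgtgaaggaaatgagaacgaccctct
RD29A: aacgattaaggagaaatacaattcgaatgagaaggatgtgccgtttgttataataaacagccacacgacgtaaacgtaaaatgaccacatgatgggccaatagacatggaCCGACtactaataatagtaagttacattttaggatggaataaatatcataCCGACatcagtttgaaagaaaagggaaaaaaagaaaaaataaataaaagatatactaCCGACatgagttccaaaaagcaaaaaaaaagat
GOLS3: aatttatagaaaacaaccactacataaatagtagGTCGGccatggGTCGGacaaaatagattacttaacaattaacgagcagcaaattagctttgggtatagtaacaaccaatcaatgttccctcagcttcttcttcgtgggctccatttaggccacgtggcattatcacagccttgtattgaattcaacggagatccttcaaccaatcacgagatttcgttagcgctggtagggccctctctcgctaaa

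COR15A held the core at -142 and -79, RD29A at -140, -90 and -33, and GOLS3 at -216 and -205, counting back from the base before the start. The search ended at the annotated gene start, so elements lying after it were not looked for. Of all 27443 protein-coding genes, 11.97% had CCGAC on either strand within 250 bases and 21.4% within 500 bases. Widening the window to 500 bases added COR15B at -265 and COR47 at -368, which made 5 of the 10 genes. The COR15B window of 250 bases runs into the neighbouring COR15A gene. Of 8 tested genes, COR15A, RD29A and GOLS3 had the 3 largest differences between cry1 and WT in blue light, at 2.63, 2.67 and 1.63. That coincidence was seen after the values were known and was not tested, and a match of letters is not a bound site. GOLS3 also passed the filter only through the cry1 blue libraries, where it is high.

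KIN1 and KIN2 encode a pair of very similar small hydrophilic proteins, and they lie in tandem on the plus strand of chromosome 5, at 5209717 to 5210826 and 5211719 to 5212743. Their 250-base upstream windows, chr5:5209467-5209716 for KIN1 and chr5:5211469-5211718 for KIN2, are shown because the 2 genes differed so much in level. Neither holds CCGAC within 250 or 500 bases, and each holds 1 ABRE core, which is ACGTG, at -150 in KIN1 and -192 in KIN2. Capitals mark CACGT, the core as read on the other strand.
KIN1: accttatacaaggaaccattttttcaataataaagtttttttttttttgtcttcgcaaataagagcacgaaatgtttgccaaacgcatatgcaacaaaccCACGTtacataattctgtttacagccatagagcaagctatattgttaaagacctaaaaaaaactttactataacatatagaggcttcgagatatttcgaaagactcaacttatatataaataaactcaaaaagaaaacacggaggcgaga
KIN2: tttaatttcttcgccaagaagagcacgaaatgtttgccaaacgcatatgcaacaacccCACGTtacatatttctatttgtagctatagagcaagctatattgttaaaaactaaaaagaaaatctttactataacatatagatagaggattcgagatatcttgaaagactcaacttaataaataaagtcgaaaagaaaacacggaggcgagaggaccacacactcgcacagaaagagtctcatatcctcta

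KIN1 had 37.47, 18.95 and 41.59 TPM in cry1 blue light and 4.30, 8.79 and 1.57 TPM in the cry1 dark, against 9.71, 17.24 and 11.37 TPM in WT blue light and 1.40, 0.83 and 1.11 TPM in the WT dark. Each group of cry1 lay above its WT counterpart without overlap, by narrow margins. The nearest libraries had 18.95 TPM in cry1 against 17.24 TPM in WT in blue light, and 1.57 against 1.40 TPM in the dark. The light response of KIN1 was 2.65 ± 0.42 in cry1 (adjusted p = 0.000687) and 2.68 ± 0.42 in WT (adjusted p = 0.000455), and the difference between them was -0.03 (95% CI -1.30 to 1.24, adjusted p = 0.98). KIN1 was higher in cry1 than in WT by 1.25 ± 0.42 in blue light (adjusted p = 0.0421) and by 1.28 ± 0.42 in the dark (adjusted p = 0.0354). Both calls were weak, since 10 of 15 alternatives lost the first and 9 of 15 the second.

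KIN2 and COR47 were the most abundant of the 10 genes in blue light, and within each genotype the blue light libraries of KIN2 overlapped those of COR47 in level. The TPM of KIN2 was 13.9 to 16.4 times that of KIN1 in the cry1 blue libraries and 12.8 to 27.0 times in the WT blue libraries. KIN2 had 614.35, 300.59 and 578.22 TPM in cry1 blue light and 59.54, 125.16 and 36.19 TPM in the cry1 dark, against 245.49, 220.62 and 307.29 TPM in WT blue light and 19.95, 21.90 and 25.33 TPM in the WT dark. The blue groups overlapped through the second cry1 library, and the dark groups did not overlap. KIN2 rose by 2.86 ± 0.37 in cry1 (adjusted p = 0.000136) and by 3.46 ± 0.37 in WT (adjusted p = 2.77e-05), and the difference between these responses was -0.61 (95% CI -1.73 to 0.52, adjusted p = 0.475). In the dark KIN2 was higher in cry1 than in WT by 1.5 ± 0.37 (adjusted p = 0.0108), and all 15 alternatives kept that call. In blue light the difference was 0.89 ± 0.37 (95% CI 0.10 to 1.69, adjusted p = 0.0951), and without the second cry1 blue library it was 1.22 (adjusted p = 0.0369). The 2 coding sequences are 95% identical, so the split of reads between KIN1 and KIN2 is uncertain.

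COR47 encodes a dehydrin, an intrinsically disordered protein that protects membranes and other proteins from drying and freezing. It lies on the minus strand of chromosome 1 at 7084409 to 7086873, and it was the only one of the 10 genes above 100 TPM in every library. COR47 had 424.51, 324.79 and 472.97 TPM in cry1 blue light and 123.89, 129.19 and 113.50 TPM in the cry1 dark, against 296.12, 172.50 and 232.26 TPM in WT blue light and 216.44, 153.07 and 205.97 TPM in the WT dark. The cry1 blue libraries were the 3 highest and the cry1 dark libraries the 3 lowest, with the WT groups overlapping between them. It rose by 1.71 ± 0.21 in cry1 (adjusted p = 0.000103), while the estimate in WT was 0.27 ± 0.21 (95% CI -0.20 to 0.73, adjusted p = 0.349). The difference between these responses was 1.45 ± 0.30 (95% CI 0.80 to 2.1, adjusted p = 0.0149) and was called in all 20 alternatives. COR47 was higher in cry1 than in WT in blue light by 0.82 ± 0.21 (adjusted p = 0.0135) and lower in the dark with a difference of -0.63 ± 0.21 (adjusted p = 0.0413). The blue light call was lost without the second WT blue library (adjusted p = 0.0659) or without the third cry1 blue library (adjusted p = 0.0641). The lower level in the cry1 dark was lost in 9 of 15 alternatives, and after TMM-type scaling it was -0.34 (adjusted p = 0.303).

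**Figure D2:**
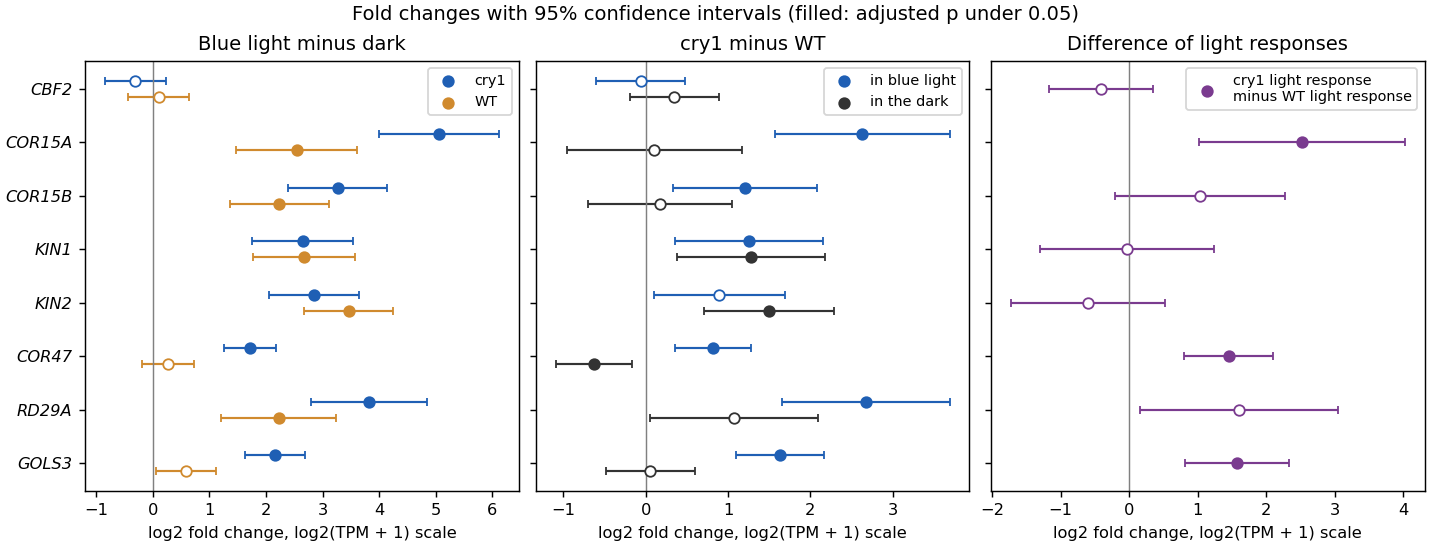
Differences of log2(TPM + 1) for the 8 tested genes, as blue light minus dark in each genotype, as cry1 minus WT in each condition, and as cry1 light response minus WT light response; whiskers are 95% confidence intervals and filled points passed an adjusted p under 0.05. COR15A, COR47 and GOLS3 were the 3 genes whose light response was larger in cry1 than in WT by that test. COR47 kept this call in all 20 alternatives, while COR15A lost it in 12 of 20 and GOLS3 in 1 of 19.

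The 10 genes thus fell in different places when the genotypes were compared. In blue light 6 of the 8 tested genes were higher in cry1 than in WT and 0 lower, against 10.9% higher and 14.3% lower of all genes tested. That count was 3 without the second WT blue library and 3 without the third cry1 blue library. In the dark 2 were higher and 1 lower, against 5.33% and 23.5% of all genes. For the difference between the light responses, 3 were called in the direction of a larger response in cry1 and 0 in the other, against 6.84% and 2.33% of all genes. GOLS3 is among both the 6 and the 3, and it passed the filter only through the cry1 blue libraries where it is high, so nothing is read from these counts against the shares of all genes. These backgrounds depend on scaling. Higher calls made up 43.2% of calls in blue light, 18.5% in the dark and 74.6% for the interaction with TPM as deposited, against 53.9%, 51.6% and 59.2% after quantile normalization and 47.5%, 45.5% and 55.4% after TMM-type scaling. The median of all genes was -0.27 for the WT light response, -0.29 for the dark comparison and 0.26 for the interaction on the deposited scale, and 0.00 for the WT light response and 0.01 for the interaction after TMM-type scaling. The contrasts share libraries, so a high WT dark value or a low WT blue value enters more than 1 of them.

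The levels of the COR genes followed the same libraries within a group only in part. The second WT blue library was the lowest of its group for COR15A, COR15B, KIN2, COR47, RD29A and GOLS3, and for KIN1 it was the highest. It also had the lowest summed root markers of its group, at 0.92 TPM. The second cry1 blue library was the lowest of its group for COR15A, COR15B, KIN1, KIN2, COR47 and GOLS3, and RD29A was lowest in the first. Whether library makeup takes part in this spread was not tested.

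Some genes known to act upstream of the CBF genes changed with light. Of 14 genes listed as CBF activators, 13 were tested. In cry1 6 were higher and 0 lower after blue light, where 9.19% of all genes rose and 5.73% fell. In WT 4 were higher and 5 lower, where 9.73% of all genes rose and 25.3% fell. After TMM-type scaling 5 were higher and 2 lower in WT, beside 3607 higher and 3337 lower of all 20314 genes. The median response of the 13 was 0.49 in cry1 and -0.27 in WT, beside -0.06 and -0.27 for all genes. HY5, a bZIP factor of light signalling, rose by 4.0 ± 0.19 in cry1 (adjusted p = 3.56e-08) and by 5.23 ± 0.19 in WT (adjusted p = 4.58e-09). It averaged 64.8 TPM in cry1 blue light and 3.15 TPM in the cry1 dark, against 186 TPM in WT blue light and 4.02 TPM in the WT dark. The clock gene CCA1 had 30.43, 21.87 and 26.07 TPM in cry1 blue light and 1.00, 0.46 and 1.12 TPM in the cry1 dark, against 60.88, 52.42 and 30.10 TPM in WT blue light and 14.38, 31.62 and 13.17 TPM in the WT dark. CCA1 was lower in the cry1 dark than in the WT dark with a difference of -3.39 ± 0.33 (adjusted p = 7.47e-05), and its light response was larger in cry1 by 2.59 ± 0.46 (adjusted p = 0.00817). In the dark 10 of the 13 activators were lower in cry1 and 0 higher, and in blue light 6 were lower and 0 higher. Of all genes 23.5% were lower in the dark and 14.3% in blue light, and the list medians were -0.95 and -0.77, beside -0.29 and -0.02 for all genes. After TMM-type scaling these became 8 lower and 0 higher in the dark and 7 lower and 1 higher in blue light. Of all 20314 genes, 2760 were then lower and 2304 higher in the dark, and 3530 lower and 3195 higher in blue light.

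The 16 genes listed as CBF repressors were all tested. After blue light 4 rose and 0 fell in cry1, where 9.19% of all genes rose and 5.73% fell, and 2 rose and 7 fell in WT, where 9.73% of all genes rose and 25.3% fell. The median response of the 16 was -0.28 in cry1 and -0.26 in WT, beside -0.06 and -0.27 for all genes. In cry1 SOC1, a flowering-time MADS factor, rose by 1.68 ± 0.21 (adjusted p = 9.33e-05) and the phytochrome-interacting factor PIF7 by 1.79 ± 0.27 (adjusted p = 0.000494). In WT the kinase gene BIN2 fell by 1.44 (adjusted p = 0.000122) and EIN3, a factor of ethylene signalling, fell by 1.09 (adjusted p = 0.000332). MYB15, which binds CBF promoters as a repressor, had 0.69, 0.89 and 0.98 TPM in cry1 blue light and 3.37, 2.28 and 24.20 TPM in the cry1 dark, against 25.11, 66.91 and 117.52 TPM in WT blue light and 30.25, 50.58 and 23.61 TPM in the WT dark. It was lower in cry1 than in WT in blue light with a difference of -5.01 ± 0.66 (adjusted p = 0.000226), with no overlap between the libraries. In blue light 6 repressors were lower and 2 higher in cry1, beside 14.3% and 10.9% of all genes. PIF4 was among the higher at 1.11 ± 0.27 (adjusted p = 0.00873). In the dark 12 were lower and 0 higher, beside 23.5% and 5.33% of all genes. After TMM-type scaling 9 were lower and 2 higher in blue light, and 10 lower and 0 higher in the dark. Of all 20314 genes, 3530 were then lower and 3195 higher in blue light, and 2760 lower and 2304 higher in the dark. The median of the 16 was -0.57 in blue light and -1.0 in the dark, beside -0.02 and -0.29 for all genes. PIF4 was also 1 of 3 repressors with a larger light response in cry1, by 2.16 ± 0.38 (adjusted p = 0.00771). The response was smaller in cry1 for 0 of the 16, and of all genes 6.84% had a larger and 2.33% a smaller one.

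A further list held 11 transcription factor genes that are known to respond to cold in the same first wave as the CBF genes. In blue light 7 were lower and 0 higher in cry1 than in WT, beside 14.3% and 10.9% of all genes. After TMM-type scaling 8 of the list were lower and 1 higher, beside 3530 lower and 3195 higher of all 20314 genes. ZAT12, a zinc-finger factor of cold and oxidative stress, had 7.49, 7.07 and 3.91 TPM in cry1 blue light and 13.31, 10.06 and 35.53 TPM in the cry1 dark, against 120.79, 338.06 and 128.29 TPM in WT blue light and 84.95, 96.30 and 84.30 TPM in the WT dark. The difference of ZAT12 in blue light was -4.65 ± 0.44 (adjusted p = 2.33e-05), that of WRKY33 -3.55 ± 0.44 (adjusted p = 0.000165) and that of ZAT10 -3.18 ± 0.40 (adjusted p = 0.000173). For the interaction 5 of the 11 had a lower response in cry1 and 1 a higher one, beside 2.33% and 6.84% of all genes. The higher one was the heat shock factor gene HSFC1, by 1.45 ± 0.30 (adjusted p = 0.0149). The median over the 11 in blue light was -2.07, beside -0.02 for all genes tested. In the dark 3 were lower and 0 higher in cry1, beside 23.5% and 5.33% of all genes. After blue light 1 rose and 3 fell in cry1, beside 9.19% and 5.73% of all genes. In WT 2 rose and 2 fell, beside 9.73% and 25.3%. The third cry1 dark library was the highest of its group for ZAT12, ZAT10 and WRKY33, and the first was for HSFC1.

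Among 10 tested DREB factors outside the CBF genes, 4 rose and 1 fell in cry1 after blue light, and 3 rose and 2 fell in WT, with medians of 0.11 and 0.28 beside -0.06 and -0.27 for all genes. The shares of all genes that rose and fell were 9.19% and 5.73% in cry1 and 9.73% and 25.3% in WT. DREB2A, which acts in drought and heat through the same core element, had 12.23, 12.88 and 12.64 TPM in cry1 blue light and 2.23, 2.05 and 3.39 TPM in the cry1 dark, against 121.26, 153.23 and 49.48 TPM in WT blue light and 27.80, 46.73 and 44.87 TPM in the WT dark. It rose in both genotypes, by 1.95 ± 0.34 in cry1 (adjusted p = 0.0015) and by 1.3 ± 0.34 in WT (adjusted p = 0.0109). It was lower in cry1 than in WT with a difference of -2.86 ± 0.34 in blue light (adjusted p = 0.000137) and with a difference of -3.50 ± 0.34 in the dark (adjusted p = 8.32e-05). Its libraries did not overlap between genotypes. CEJ1, a small repressor of the DREB family also called DEAR1, was lower in cry1 in blue light with a difference of -2.46 ± 0.42 (adjusted p = 0.00108), and DEAR3 was higher by 0.90 ± 0.18 (adjusted p = 0.00302). In blue light 2 of the 10 were higher and 3 lower in cry1, beside 10.9% and 14.3% of all genes, and in the dark 0 were higher and 4 lower, beside 5.33% and 23.5%.

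Some other cold-regulated genes that are not among the 10 also rose in blue light. Of 24 tested, 11 rose and 2 fell in cry1, and 7 rose and 4 fell in WT, or 12 and 4 in WT after TMM-type scaling. With TPM as deposited, the shares of all genes that rose and fell were 9.19% and 5.73% in cry1 and 9.73% and 25.3% in WT. After TMM-type scaling 3607 of all 20314 genes rose and 3337 fell in WT. Their median response was 0.74 in cry1 and 0.36 in WT, beside -0.06 and -0.27 for all genes. BAM3, a chloroplast starch-degrading beta-amylase, rose by 4.86 ± 0.33 in cry1 (adjusted p = 8.11e-07) and by 3.67 ± 0.33 in WT (adjusted p = 7.59e-06). GOLS1, a galactinol synthase gene known from drought and heat, had 51.16, 47.48 and 43.22 TPM in cry1 blue light and 3.77, 4.17 and 6.32 TPM in the cry1 dark, against 106.66, 119.80 and 82.39 TPM in WT blue light and 23.05, 27.63 and 31.44 TPM in the WT dark. GOLS1 thus lay below WT in cry1 in both conditions, with a difference of -1.09 ± 0.20 in blue light (adjusted p = 0.00191) and with a difference of -2.32 ± 0.20 in the dark (adjusted p = 3.42e-05), while GOLS3 was higher in cry1 in blue light. The coding sequences of GOLS3 and GOLS1 are 74.1% identical.

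COR413-PM1, which encodes a cold-regulated protein of the plasma membrane, rose by 2.56 ± 0.28 in cry1 (adjusted p = 3.44e-05) and averaged 274 TPM in cry1 blue light and 45.2 TPM in the cry1 dark, against 113 TPM in WT blue light and 51.0 TPM in the WT dark. In blue light it was higher in cry1 by 1.34 ± 0.28 (adjusted p = 0.00378), as were COR413IM1, a protein of the chloroplast inner envelope, by 1.19 ± 0.25 (adjusted p = 0.00398) and the small membrane protein gene RCI2B by 1.65 ± 0.25 (adjusted p = 0.000573). In all, 6 of the 24 were higher and 5 lower in cry1 in blue light, beside 10.9% and 14.3% of all genes, and 1 was higher and 8 lower in the dark, beside 5.33% and 23.5%. The response was larger in cry1 for 6 and smaller for 1, beside 6.84% and 2.33% of all genes. Those 6 include COR413IM1 at 1.82 ± 0.36 (adjusted p = 0.012), P5CS1 at 1.47 ± 0.31 (adjusted p = 0.0149) and RCI2B at 1.68 ± 0.36 (adjusted p = 0.0161), P5CS1 being an enzyme of proline synthesis. COR27, a cold-induced gene that is also controlled by the clock, fell in WT by 1.93 (adjusted p = 0.00057).

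**Figure D3:**
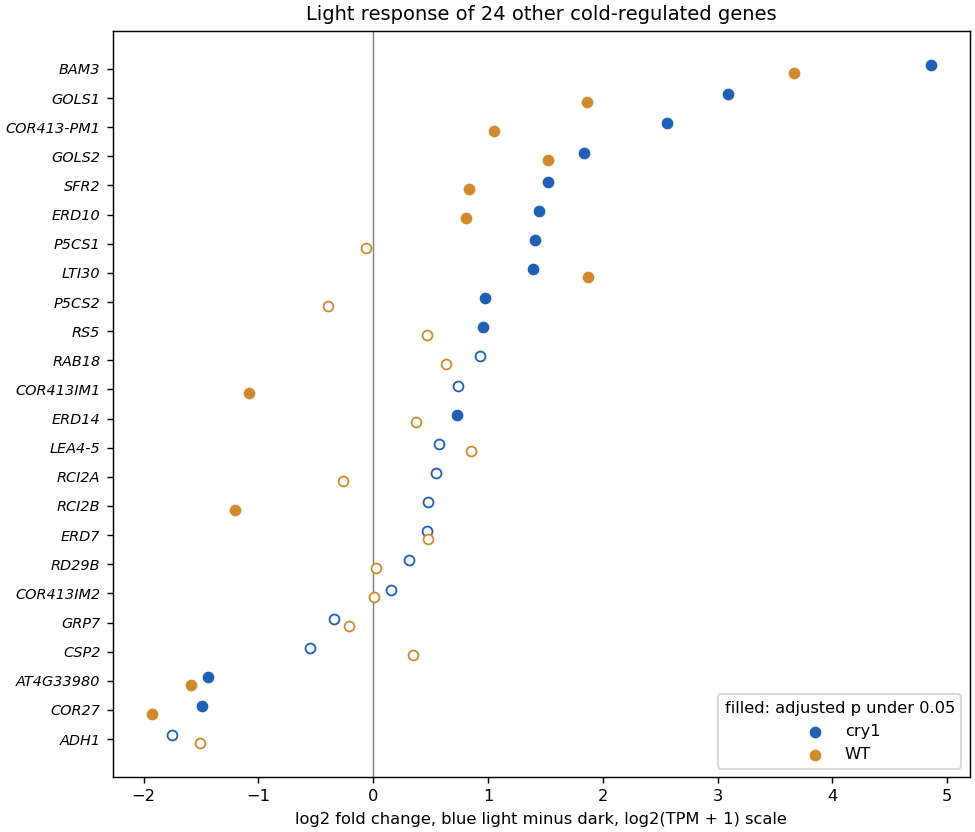
Light response of the 24 tested cold-regulated genes outside the 10, 1 row per gene, as the difference of log2(TPM + 1) between blue light and dark; blue points are cry1, orange points WT, and filled points passed an adjusted p under 0.05. BAM3 and GOLS1 had the largest responses in cry1, at 4.86 and 3.09, and COR27 the lowest called value, at -1.93 in WT.

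Genes of abscisic acid synthesis and response were followed as a further route to COR genes. Of 16 tested, 5 rose and 1 fell in cry1 after blue light, and 6 rose and 2 fell in WT, with medians of 0.39 and 0.26 beside -0.06 and -0.27 for all genes. Among all genes 9.19% rose and 5.73% fell in cry1, and 9.73% rose and 25.3% fell in WT. ABA1, which encodes zeaxanthin epoxidase of abscisic acid synthesis, rose by 2.55 ± 0.25 in cry1 (adjusted p = 1.32e-05) and by 2.05 ± 0.25 in WT (adjusted p = 7.18e-05), and HAI1, a protein phosphatase of the response, rose by 1.27 ± 0.21 in cry1 (adjusted p = 0.000873) and by 0.89 ± 0.21 in WT (adjusted p = 0.00593). In blue light 5 of the 16 were lower and 1 higher in cry1 than in WT, where 14.3% of all genes were lower and 10.9% higher. In the dark 6 of the 16 were lower and 0 higher, where 23.5% of all genes were lower and 5.33% higher. For the interaction limma called 0 of 16, and 1 of 16 had an unadjusted p under 0.05.

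**Figure D4:**
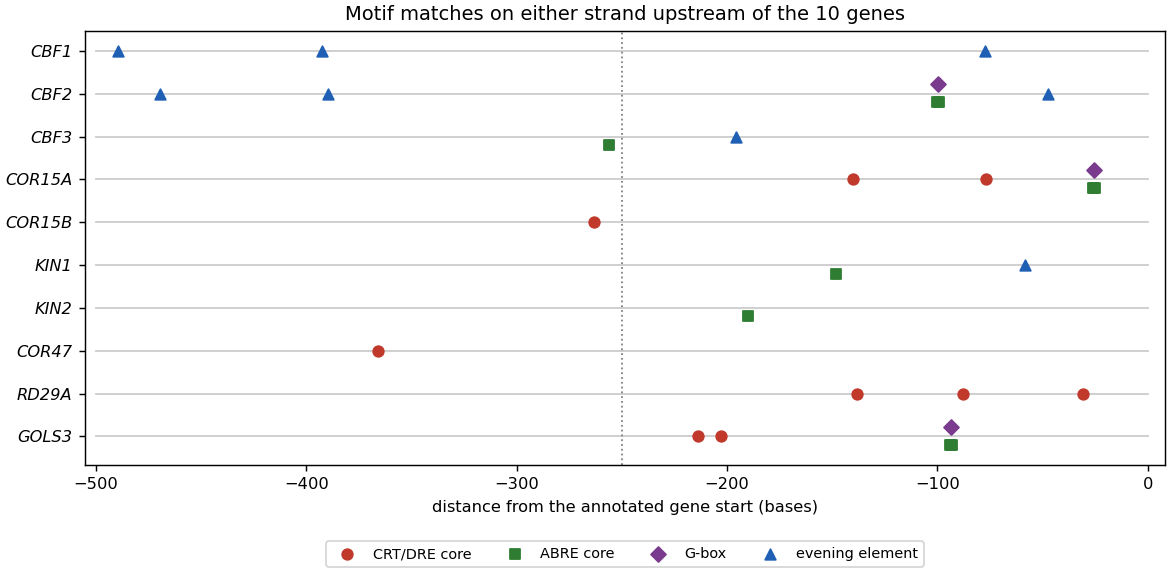
Positions of the searched motifs in the 500 bases before the annotated start of each of the 10 genes, as distance from the start in bases. CRT/DRE cores lie within 250 bases in COR15A, RD29A and GOLS3, and the evening element in CBF1, CBF2, CBF3 and KIN1.

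The upstream windows of the 10 genes also differed in the other motifs searched on both strands. The ABRE core ACGTG occurred within 250 bases in 5 of the 10 genes, against 22.9% of all protein-coding genes. The G-box CACGTG, which contains the ABRE core and is the element HY5 and PIF factors are known to bind, occurred in CBF2, COR15A and GOLS3, against 6.49%. The evening element AAATATCT, known from clock-controlled genes, occurred in CBF1, CBF2, CBF3 and KIN1, against 4.79%. Within 500 bases the ABRE core was present in 6 of the 10 genes against 35.5% of all, the G-box in 3 against 9.35% and the evening element in 4 against 8.86%. The 10 genes are few and neighbours in tandem share sequence, so these shares are descriptions.

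Of the genes whose pattern over the 12 libraries was most like that of a member, some were the other member of its tandem pair. COR15A and COR15B correlated at r = 0.983 and KIN1 and KIN2 at r = 0.978 over the 12 libraries. COR15A was closest to CYP706A6, a cytochrome P450 gene (r = 0.988), and RD29A to PAO5, a polyamine oxidase gene (r = 0.981). COR47 was closest to LHCB4.1, a light-harvesting antenna protein gene (r = 0.976). The libraries share 4 conditions, so a high r is a description of the same order of groups.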

How the data were processed

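The authors deposited 1 table of TPM values per library, 12 in all, with 32833 gene identifiers, and each table sums to between 980965 and 996431 TPM. The deposited values are described as TPM. The submitters' processing notes name the build TAIR10 and the programs Trimmomatic 0.36, HISAT2 2.2.1.0, Bowtie2, TopHat, DESeq 1.18.0 and Cufflinks, without saying what each did. The release of the annotation, the strand setting and the treatment of shared reads are not given in the sources read. TPM keeps no depth, so no interval for counting error was computed.

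From the deposited TPM, log2(TPM + 1) of the 20314 genes with at least 1 TPM in at least 3 libraries was fitted with limma 3.58.1 in R 4.3.3, with 1 mean per group, a variance trend and no block. P-values were adjusted by Benjamini-Hochberg within each of 5 contrasts: the light response in cry1, the light response in WT, cry1 minus WT in blue light, cry1 minus WT in the dark, and their interaction (response of cry1 minus response of WT). The fit was tested on simulated data. Alternatives were a TMM-type scaling, quantile normalization, other filters and pseudocounts, no variance trend, a replicate block, a fit of the compared groups only, and leaving out each library.

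The 10 members and 110 listed genes in 9 lists were chosen with earlier results of these data known. All members are named, and of each other list up to 4 genes per contrast with the smallest adjusted p, CRY1, tandem or family neighbours of members, and the 3 genes most like each member. Of the identifiers 32548 matched RefSeq genes, and DEAR1 is named CEJ1 as there. Loci, upstream sequence and motif counts were read from the RefSeq genome and annotation TAIR10.1, and coding sequences were aligned with Biopython 1.88. The deposited tables hold no coordinates.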

Additional observations from a re-analysis of the deposited data

Results flagged for a closer look

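In 3 genes the response to blue light differed between cry1 and WT by a test of that difference itself (limma, Benjamini-Hochberg over 20314 genes, all 12 libraries). For COR15A the cry1 light response exceeded the WT light response by 2.52 on the log2 scale (adjusted p = 0.0398), with each cry1 blue library above each WT blue library, and 12 of 20 alternatives lost the call (adjusted p up to 0.109). For COR47 the excess was 1.45 (adjusted p = 0.0149), the estimate in WT alone being 0.27. For GOLS3 it was 1.57 (adjusted p = 0.0183), in a gene that passed 1 TPM only in the 3 cry1 blue libraries, and the call was lost with a pseudocount of 0.1 (adjusted p = 0.124).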

How the results depend on the processing

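Of 630 alternative values for the 40 differences of single genes, 576 kept their side of the threshold, 50 lost a call and 4 gained one. A change of direction was counted only where the main or the alternative fit made a call, and 0 were found. Uncalled differences near 0 did change sign, such as that of CBF2 between genotypes in blue light (-0.18 to 0.08). With 6 or 7 rises in cry1 and 5 or 6 in WT, the light response counts stayed close under every alternative, leave-outs included. In the dark the count of higher genes was 1 in place of 2 after TMM-type scaling, with no filter, with compared groups only and with the replicate block. The count of lower genes there was 0 in place of 1 after TMM-type scaling, quantile normalization, no filter and no variance trend. With a pseudocount of 0.1 the interaction count was 1 in place of 3. Leaving out single libraries gave 3 to 7 higher genes in blue light, with 3 without the second WT blue or the third cry1 blue library, 1 to 3 higher and 0 to 1 lower genes in the dark, and 2 to 3 for the interaction. The dark count of higher genes was 1 without any 1 WT dark library or without the first or second of cry1, and that of lower genes was 0 without the first or the third WT dark library or any 1 of cry1. Same-numbered libraries deviated together in 3 of 18 pairs (r over 0.1; range -0.37 to 0.31), and 5 of 12 libraries correlated best with their own number, so the numbers were not read as pairs. A filter at 5 TPM left no value for CBF2 and GOLS3. The causes were not tested. The absence of read depth limits what can be said of the CBF genes and of all values under 1 TPM.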

Other observations

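The tandem genes COR15A and COR15B did not keep 1 ratio across the groups. COR15A was 4.24 to 5.07 times COR15B in the 3 cry1 blue libraries and 1.86 to 2.46 times in the cry1 dark libraries, against 1.25 to 2.13 times in the 3 WT blue libraries. In the WT dark the ratio ran from 1 to 8.11. Both genes were under 1 TPM in every dark library of cry1 and of WT, so the dark ratios rest on values near 0. The mean log2 ratio in blue light was higher in cry1 than in WT by 1.43, in 3 of 3 libraries, with a 2-sided exact permutation p of 0.1, which is the smallest that 3 against 3 libraries allow. For KIN2 over KIN1 the same difference was -0.42 with overlapping libraries (exact permutation p = 0.4). These 2 ratios were chosen after the values were seen, and p-values were not adjusted over them.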
